A study of Rattus norvegicus with 24 samples.

Results

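The levels of 10 genes of sodium and potassium transport in the distal nephron were examined in the kidneys of cystic rats. The genes were Umod, Slc12a1, Slc12a3, Kcnj1, Kcnj10, Scnn1a, Scnn1b, Scnn1g, Wnk1 and Wnk4, chosen by name out of the 17334 genes of the deposited tables, and all 10 were found by symbol. All 10 passed the filter on low counts, which left 12778 genes, and the smallest count behind any of their values was 41 (Kcnj10 in a CoCM animal). RNA of the left kidney had been sequenced in 24 male PKD/Mhm (Cy/+) rats, 6 in each of 4 groups, all 8 months old. In this line a missense change in the gene for SamCystin leads to cysts, every animal including the controls was a cystic heterozygote, and no healthy kidney was part of the comparison. Control animals (Ctrl) were untreated. The CoCM group received the supernatant of human ABCB5+ cells (stromal cells of skin that carry the transporter ABCB5) grown together with stimulated macrophages of the THP-1 line, and the other groups received the ABCB5+ cells themselves, once a month for 6 months, by intraperitoneal (i.p. ABCB5+) or by intravenous injection (i.v. ABCB5+). All treatments were of human origin and were given to rats. The 3 comparisons with Ctrl share the same 6 control animals, and the animal numbers of the controls were all lower than those of the treated rats, so the order of the animals and the treatment cannot be told apart.

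In the thick ascending limb, the cotransporter NKCC2 (Slc12a1) takes up sodium, potassium and chloride, the channel ROMK (Kcnj1) returns the potassium to the lumen, and uromodulin (Umod) is made and shed in large amounts. In the distal convoluted tubule, the cotransporter NCC (Slc12a3) takes up sodium with chloride, while the basolateral channel Kir4.1 (Kcnj10) sets the membrane voltage. The kinases WNK1 and WNK4 switch these cotransporters through SPAK and OSR1. In the connecting tubule and collecting duct, sodium enters through ENaC, built from an alpha (Scnn1a), a beta (Scnn1b) and a gamma (Scnn1g) subunit under the control of aldosterone, and potassium leaves through ROMK. Wnk1 was measured as 1 gene, which adds its long form and its shorter kidney form.

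Whole kidney RNA is a mixture, in which fewer cells of a type and less RNA per cell cannot be told apart. Total estimated counts were between 9304630 and 14125457 per animal. On the main axis of variation of all other tested genes (principal component 1, 56.3% of the variance), CoCM animal 39, i.p. ABCB5+ animal 38 and i.v. ABCB5+ animals 36 and 37 stood apart from the other 20. In these 4 animals the summed level of the injured tubule markers was between 419 and 697 TPM (a level scaled to transcript length and to the library), against 6539 to 14057 TPM in the other 20, and the summed level of the immune markers was 732 to 1524 against 2645 to 6178 TPM. No control animal was among them. Fold changes are therefore given with and without these 4 animals. Markers of the distal nephron other than the members were present: summed levels over the 24 animals were 662 to 3491 TPM for the thick ascending limb, 1000 to 2841 TPM for principal cells and 528 to 2073 TPM for intercalated cells. For the distal convoluted tubule only Calb1 and Slc8a1 could be tested, since Pvalb was at 0 in 22 of 24 animals and no higher than 0.33 TPM in the others, and Trpm6 and Klhl3 were not analysed here.

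Among the genes of the thick ascending limb, Umod was the most abundant member of all, and Umod and Slc12a1 were among the most variable. Umod had a lowest, median and highest level of 800, 1662 and 3784 TPM in Ctrl, of 671, 2067 and 3763 TPM in CoCM, of 1187, 3027 and 4066 TPM with the i.p. cells and of 1082, 2546 and 4638 TPM with the i.v. cells. The ranges of the 4 groups overlapped almost entirely, and the highest Ctrl animal lay above every CoCM animal. Slc12a1 went from 105 over a median of 200.1 to 507 TPM in Ctrl, from 91.6 over 267 to 422 TPM in CoCM, from 205 over 309 to 539 TPM with the i.p. cells and from 129 over 276 to 446 TPM with the i.v. cells. Its highest Ctrl animal, number 24, was also the highest for Umod. Kcnj1, whose channel also works further downstream in the collecting duct, went from 148 over 215 to 393 TPM in Ctrl, from 169 over 261 to 455 TPM in CoCM, from 203 over 291 to 531 TPM with the i.p. cells and from 189 over 252 to 360 TPM with the i.v. cells. The highest Kcnj1 level of the CoCM and of the i.p. group was in animals 39 and 38, which stood apart.

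The sequences before the start sites of Umod and Slc12a1 are shown because these 2 genes had one of the closest relations among the pairs of members. Both are the 250 bases before the RefSeq start in the rat assembly GRCr8, written 5′ to 3′ on the strand of the gene, with matches to the motifs searched in capitals. That of Umod lies at chr1:183261017-183261266 on the minus strand and the first of 2 for Slc12a1 at chr3:132859409-132859658 on the plus strand.
Umod: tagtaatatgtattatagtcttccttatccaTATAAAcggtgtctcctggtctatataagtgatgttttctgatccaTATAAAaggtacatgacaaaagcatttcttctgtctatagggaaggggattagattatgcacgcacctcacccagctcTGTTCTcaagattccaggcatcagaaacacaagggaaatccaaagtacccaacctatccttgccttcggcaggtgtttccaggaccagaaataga
Slc12a1: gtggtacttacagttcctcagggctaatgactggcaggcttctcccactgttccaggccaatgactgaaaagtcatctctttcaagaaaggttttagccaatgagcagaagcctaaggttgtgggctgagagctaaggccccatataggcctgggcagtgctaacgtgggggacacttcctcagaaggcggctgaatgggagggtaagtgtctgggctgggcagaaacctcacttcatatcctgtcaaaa
Umod held the TATA box letters TATAAA at positions -219 and -173 from the start and the steroid receptor half-site AGAACA, on the reverse strand, at -95. The Slc12a1 sequence held none of the 7 motifs searched, and the pair had no match in common.

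Slc12a3 was the second most abundant member. It went from 333 over a median of 459 to 1252 TPM in Ctrl, from 328 over 609.5 to 1105 TPM in CoCM, from 368 over 671 to 1370 TPM with the i.p. cells and from 398 over 602 to 892 TPM with the i.v. cells. The ranges of the groups overlapped broadly, and in Ctrl 5 animals lay at 721 TPM or below and animal 23 at 1252 TPM. Kcnj10 was the lowest member and the most variable, at 4.51 over 14.0 to 37.4 TPM in Ctrl, 2.96 over 9.84 to 37.1 TPM in CoCM, 9.25 over 12.4 to 42.6 TPM with the i.p. cells and 5.94 over 18.2 to 28.5 TPM with the i.v. cells. The CoCM group had both the lowest Kcnj10 animal and, in animal 39, one of the highest.
The start of Slc12a3 (chr19:10675051-10675300, minus strand, GRCr8) is shown for comparison with that of Slc12a1, its relative upstream in the nephron.
Slc12a3: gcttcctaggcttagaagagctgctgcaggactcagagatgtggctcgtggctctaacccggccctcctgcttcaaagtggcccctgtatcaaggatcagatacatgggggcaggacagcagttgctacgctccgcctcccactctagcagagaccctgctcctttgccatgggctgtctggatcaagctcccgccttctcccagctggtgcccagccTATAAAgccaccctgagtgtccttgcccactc
It held TATAAA at -32, while Slc12a1 held no such match in its window.

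Within groups the kinases varied less than Slc12a3 and Kcnj10. Wnk1 went from 76.0 over 119 to 233 TPM in Ctrl, from 63.9 over 123 to 231 TPM in CoCM, from 81.7 over 139 to 256 TPM with the i.p. cells and from 79.4 over 138 to 181 TPM with the i.v. cells. Wnk4, the form tied to the distal convoluted tubule, went from 57.4 over 74.3 to 163 TPM in Ctrl, from 75.3 over 99.3 to 129 TPM in CoCM, from 69.0 over 94.1 to 142 TPM with the i.p. cells and from 69.5 over 81.6 to 133 TPM with the i.v. cells. The highest Ctrl animal exceeded every treated animal for Wnk4, although the Ctrl median was the lowest of the 4.

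The 3 ENaC subunits lay close together. Scnn1a went from 56.3 over 66.3 to 121 TPM in Ctrl, from 59.3 over 77.4 to 134 TPM in CoCM, from 57.1 over 88.7 to 165 TPM with the i.p. cells and from 55.8 over 73.3 to 105 TPM with the i.v. cells. Scnn1b went from 69.1 over 97.9 to 205 TPM in Ctrl, from 84.3 over 133 to 162 TPM in CoCM, from 81.4 over 133 to 193 TPM with the i.p. cells and from 65.6 over 101 to 161 TPM with the i.v. cells. Scnn1g went from 38.6 over 47.9 to 108 TPM in Ctrl, from 39.3 over 62.2 to 92.7 TPM in CoCM, from 41.3 over 65.1 to 107 TPM with the i.p. cells and from 35.99 over 53.4 to 79.6 TPM with the i.v. cells. For each subunit the Ctrl median was the lowest of the 4 group medians and all ranges overlapped. Scnn1b and Scnn1g stand next to each other on chromosome 1 in GRCr8, on the plus strand, and 0 genes of the RefSeq table start between them. Over all 24 animals their levels kept the most constant of the 10 ratios between members that were computed. The SD of the log2 ratio was 0.132, close to 0.139 for Scnn1a/Scnn1g. Within CoCM and i.v. ABCB5+ Scnn1a/Scnn1g was the more constant, and within Ctrl and i.p. ABCB5+ Scnn1b/Scnn1g was. The upstream sequences of Scnn1b and Scnn1g are shown for this reason, that of Scnn1g at chr1:185735975-185736224 and that of Scnn1b at chr1:185861126-185861375.
Scnn1g: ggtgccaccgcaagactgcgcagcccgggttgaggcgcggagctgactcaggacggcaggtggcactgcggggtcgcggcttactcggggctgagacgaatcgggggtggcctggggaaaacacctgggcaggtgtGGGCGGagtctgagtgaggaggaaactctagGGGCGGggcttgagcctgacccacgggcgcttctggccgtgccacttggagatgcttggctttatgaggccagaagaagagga
Scnn1b: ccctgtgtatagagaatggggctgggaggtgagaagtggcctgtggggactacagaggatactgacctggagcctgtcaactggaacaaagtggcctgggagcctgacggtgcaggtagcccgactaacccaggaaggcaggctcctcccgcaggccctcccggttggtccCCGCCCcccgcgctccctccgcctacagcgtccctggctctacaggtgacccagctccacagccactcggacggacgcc
Scnn1g held the GC box letters GGGCGG at -114 and -83 and Scnn1b held them on the reverse strand at -79. Both sequences were 65.6% G and C, against a median of 51.2% over all promoters of the table. Of the 11 windows of members (none for Scnn1a), 4 held a GC box (Kcnj10, Scnn1b, Scnn1g, Wnk4), which occurred in 30.5% of 33469 promoters. TATAAA was in 3 windows (Kcnj1, Slc12a3, Umod), against 12.9% of all, and AGAACA in 3 windows (both of Kcnj1, and Umod), against 17.5% of all. The letters GTTAAT of HNF1, CACGTG of the E-box, TGACGTCA of the cAMP response element and TCAAGGTCA of ERR were in no window of a member, and in 6.45%, 5.59%, 1.59% and 0.388% of all. Both strands were searched and the matches found in the members did not overlap one another. These matches are a description of the letters in the windows.

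**Figure D1:**
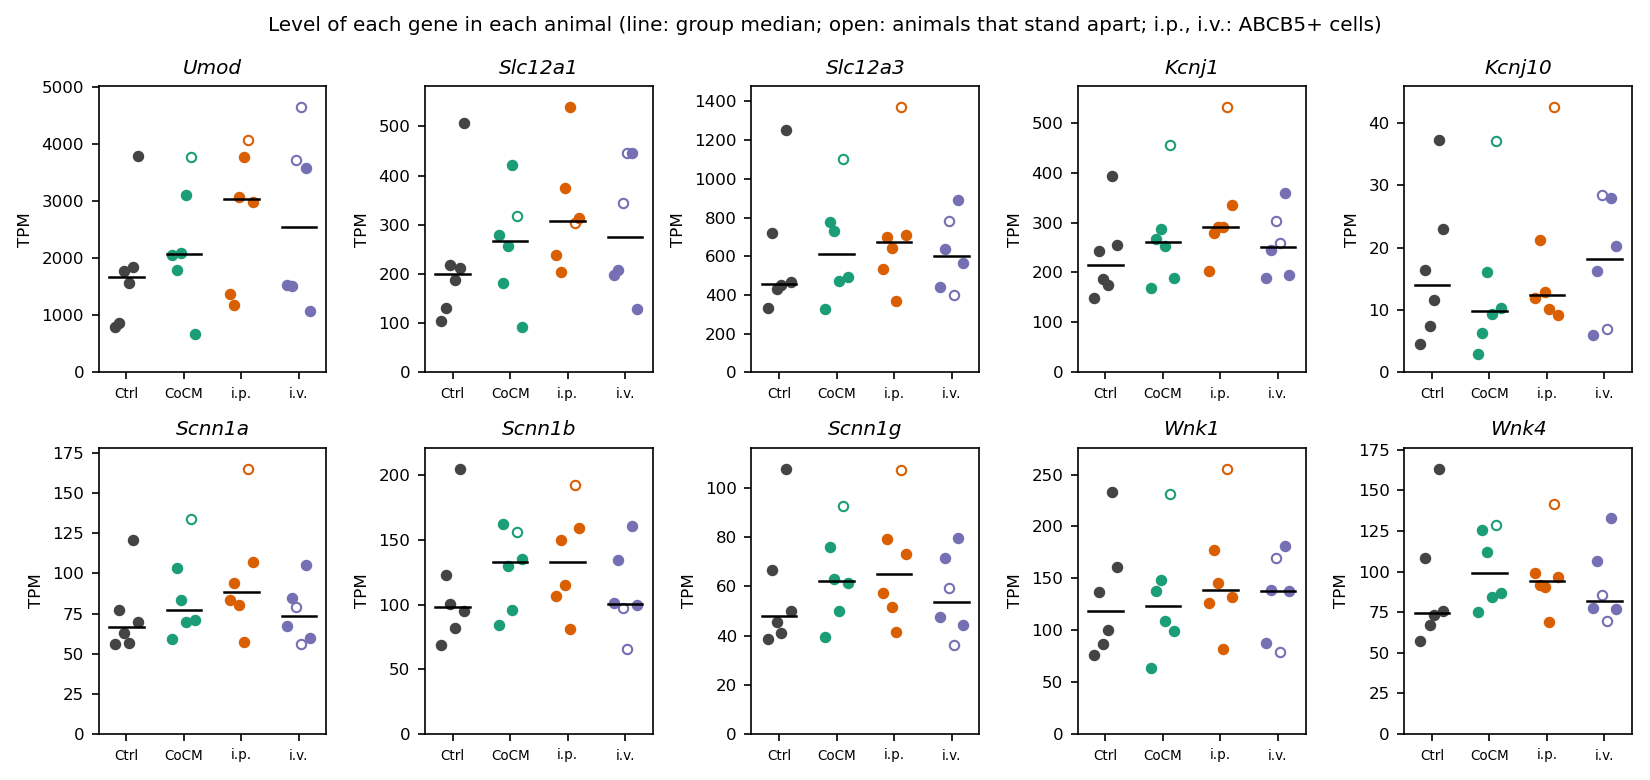
Level of each of the 10 genes (TPM, linear axis from 0) in each of the 24 animals by group; points are animals, lines are group medians, and open points mark the 4 animals that stood apart. The groups overlapped for every gene, and single animals such as Ctrl 24 (Umod 3784 TPM) and Ctrl 23 (Slc12a3 1252 TPM) set the top of the control range.

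By mean level in Ctrl the order was Umod (1769 ± 1083 TPM, SD, n = 6), Slc12a3 (609 ± 340), Kcnj1 (233 ± 88.1), Slc12a1 (227 ± 144), Wnk1 (132 ± 58.7), Scnn1b (113 ± 48.9), Wnk4 (90.8 ± 39.5), Scnn1a (73.9 ± 24.2), Scnn1g (58.3 ± 26.2) and Kcnj10 (16.7 ± 12.1). Neighbours in this order overlapped in their Ctrl ranges, except Scnn1g and Kcnj10. Within single animals the order was firmer: Umod was above Slc12a3, Slc12a3 above Kcnj1, Scnn1a above Scnn1g and Scnn1g above Kcnj10 in 24 of 24. Kcnj1 and Slc12a1 had no fixed order, since Kcnj1 was higher in 12 of 24 animals. The remaining neighbours kept their order in 18 (Wnk1 above Scnn1b) to 23 animals (Scnn1b above Wnk4).

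The first question of the design was whether any treatment shifted these genes relative to the untreated cystic kidney. In CoCM, 0 of 10 members passed edgeR's quasi-likelihood test (adjusted p from 0.516 to 0.951), where 0.00783% of all tested genes passed. In i.p. ABCB5+ 0 of 10 passed (adjusted p = 0.978 for each), where 0.0% of all genes did, and in i.v. ABCB5+ 0 of 10 passed (adjusted p from 0.673 to 0.954), again with 0.0% of all genes. An F-test in edgeR over the 4 groups passed 0 of 10 (adjusted p from 0.817 to 0.955) and 0.0% of all genes, while 4.71% of all genes and 0 members had an unadjusted p under 0.05 in it. An unadjusted p under 0.05 was found for 0 members in CoCM (11.9% of all genes, 5.96% with a higher level), for 2 members with the i.p. cells, both higher (1.77% of all genes, 1.26% higher), and for 0 members with the i.v. cells (5.78% of all genes, 4.44% higher). DESeq2 and limma passed 0 of 10 members in each of these comparisons as well.

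The 2 were Kcnj1 and Scnn1a in i.p. ABCB5+. Kcnj1 had a log2 fold change of 0.60 ± 0.29 (SE, edgeR unadjusted p = 0.0468), with an approximate 95% interval from 0.01 to 1.196. Scnn1a had 0.53 ± 0.25 (edgeR unadjusted p = 0.0467), with an interval from 0.00 to 1.06. Without the animals that stood apart the log2 fold changes were 0.32 for Kcnj1 and 0.24 for Scnn1a, and neither had an unadjusted p under 0.05. The two-sided exact permutation test of log2(TPM + 1), which assumes no shape of the spread, gave p = 0.121 for Kcnj1 and p = 0.188 for Scnn1a, and its smallest value over the 10 genes and 4 pairs of groups was p = 0.11 (Slc12a1, i.p. ABCB5+ against Ctrl). The smallest p that 6 against 6 animals allow is 0.00216.

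The point estimates were mostly above 0. In CoCM 9 of 10 members had a log2 fold change above 0 (51.4% of all genes did), with the i.p. cells 10 of 10 (51.0%) and with the i.v. cells 10 of 10 (52.6%), with medians of 0.31, 0.39 and 0.13 against 0.01, 0.00 and 0.01 for all genes. As the members moved together within groups, these counts are not 10 separate observations. Without the 4 animals that stood apart the counts were 7, 9 and 10 of 10 and the medians 0.12, 0.14 and 0.07. In limma voom with quality weights, with all animals kept, the medians were 0.30, 0.23 and 0.29. Single animals moved the edgeR medians as well. Without Ctrl animal 23 they were 0.49, 0.59 and 0.35, without CoCM animal 39 the first was 0.14 and without i.p. animal 38 the second was 0.14. With the i.v. cells the median was 0.02 without i.v. animal 42, 0.06 without i.v. animal 36, and 0.04, 0.07 and 0.05 without Ctrl animals 1, 18 and 22.

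Umod had estimates of 0.48 ± 0.49 (SE) in CoCM, 0.76 ± 0.49 with the i.p. cells and 0.76 ± 0.49 with the i.v. cells. The interval for i.p. ABCB5+ ran from -0.26 to 1.78, so that no change and a rise of 1.78 on the log2 scale both lay inside it. Without the animals that stood apart Umod was at 0.21, 0.55 and 0.07 in the same order. Slc12a1 had 0.31 ± 0.41, 0.63 ± 0.41 and 0.52 ± 0.41, and 0.19, 0.60 and 0.07 without those animals. Kcnj1 had 0.36 ± 0.28 in CoCM and 0.27 ± 0.28 with the i.v. cells, and 0.09 and 0.06 without those animals. Of the SEs of the members only that of Kcnj10 was larger than those of Umod and Slc12a1. Leaving out 1 animal moved Umod between 0.22 and 0.82 in CoCM, between 0.55 and 1.11 with the i.p. cells and between 0.42 and 1.11 with the i.v. cells.
Slc12a3 had 0.26 ± 0.35 in CoCM, 0.40 ± 0.35 with the i.p. cells and 0.14 ± 0.35 with the i.v. cells. When the animals that stood apart were left out these were -0.02, 0.02 and 0.05, so the direction in CoCM rested on animal 39. Kcnj10 had -0.09 ± 0.57, 0.28 ± 0.57 and 0.20 ± 0.57, the widest errors of the members, and without the animals that stood apart it was at -0.78, -0.29 and 0.07.
Scnn1b had 0.32 ± 0.24, 0.38 ± 0.24 and 0.05 ± 0.24 in the same order, and Scnn1g 0.28 ± 0.26, 0.35 ± 0.26 and 0.05 ± 0.26. Scnn1a had 0.37 ± 0.25 in CoCM and 0.12 ± 0.25 in i.v. ABCB5+. Without the animals that stood apart Scnn1b was at 0.21, 0.18 and 0.13, Scnn1g at 0.09, 0.10 and 0.04, and Scnn1a at 0.16 in CoCM and 0.08 with the i.v. cells, so that most of these estimates were smaller by over 1.5 times. With all animals their intervals lay between -0.50 and 1.06 on the log2 scale over the 3 subunits and treatments. Wnk1 had 0.14 ± 0.32, 0.34 ± 0.32 and 0.11 ± 0.32, and Wnk4, which had the smallest errors, 0.32 ± 0.22, 0.23 ± 0.22 and 0.11 ± 0.22. Leaving those animals out put Wnk1 at -0.16, 0.04 and 0.03 and Wnk4 at 0.19, 0.03 and 0.10. Wnk4's interval in i.v. ABCB5+ ran from -0.34 to 0.56, the tightest bound that these data set on any member in that group.

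**Figure D2:**
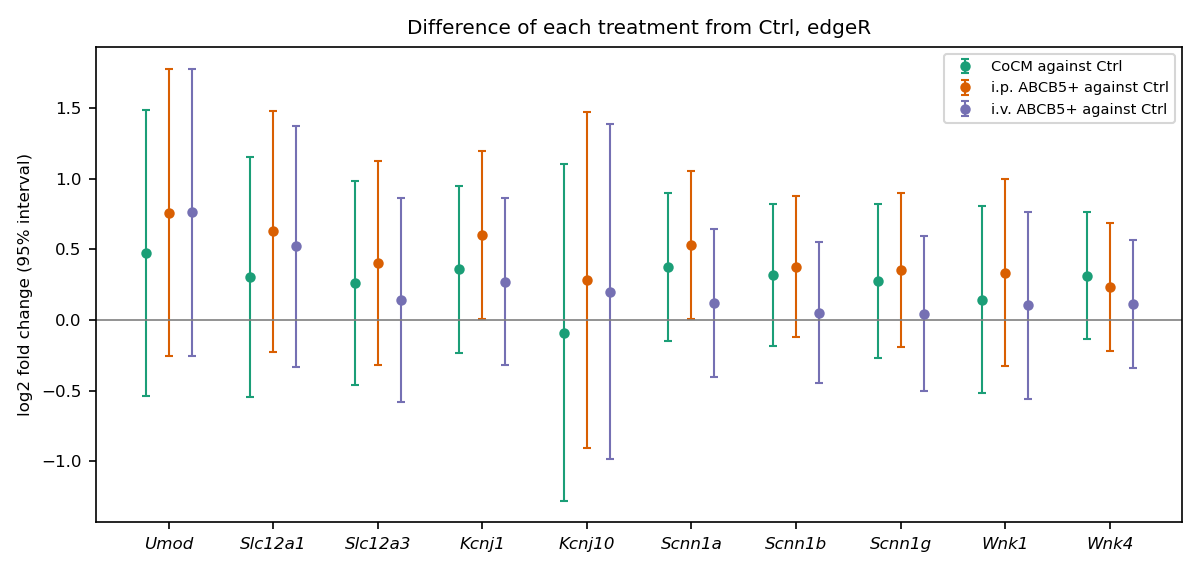
edgeR log2 fold change (y axis) of each gene against Ctrl, in green for CoCM, orange for i.p. and purple for i.v. cells (n = 6 each); points are estimates and bars approximate 95% intervals. All bars cross 0 except those of Kcnj1 (0.60) and Scnn1a (0.53) in i.p. ABCB5+, whose lower ends lie at 0.01 and 0.00.

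The second question was whether the route of injection mattered. Between i.p. and i.v. ABCB5+, 0 of 10 members passed (edgeR adjusted p = 0.9999), with 0.0% of all genes passing, and 0 had an unadjusted p under 0.05 (2.14% of all genes, 0.689% with a higher i.p. level). Log2 fold changes of i.p. against i.v. lay between -0.00 (Umod) and 0.41 (Scnn1a), with a median of 0.25. In edgeR 9 of 10 were above 0 (49.8% of all genes) and in limma voom with quality weights 4 of 10, so no direction can be given. CoCM against the mean of both cell groups passed 0 of 10 (edgeR adjusted p from 0.936 to 0.9996) with 0.0% of all genes, 0 had an unadjusted p under 0.05 (7.0% of all genes), and log2 fold changes lay between -0.33 and 0.14. No member had a treated group whose TPM range lay wholly above or below that of Ctrl, which 0.18% and 0.97% of all genes had in CoCM, 0.0313% each way with the i.p. cells and 0.00783% and 0.0783% with the i.v. cells. Between the routes it was 0 members and 0.0235% of all genes each way.

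Other genes of the pathway were taken from a list of 46, of which 42 could be tested, and 0 of 42 passed in each comparison with Ctrl. In CoCM 5 of 42 had an unadjusted p under 0.05, 1 of them higher and 4 lower, a share no larger than the 11.9% over all genes, so that the count is no result about the list. The gene with the smallest p was Nr3c1, the glucocorticoid receptor, at 20.6 to 24.7 TPM in CoCM (median 22.6) against 25.4 to 35.9 TPM in Ctrl (median 34.04). All 6 CoCM animals lay below all 6 Ctrl animals, a separation in this direction that 0.97% of all tested genes had. Its log2 fold change was -0.38 ± 0.087 (SE), with an edgeR adjusted p = 0.188, while DESeq2 gave an adjusted p = 0.00965 and limma voom with quality weights 0.0176. Over the 8 alternatives that kept all or most animals the adjusted p lay between 0.00965 and 0.469, and when 1 animal was left out of edgeR between 0.102 and 0.555. The exact permutation p was 0.00216, the smallest possible, which follows from the ranges not overlapping and adds nothing to that. The others were Oxsr1 (the kinase OSR1 that WNK kinases activate, -0.21 ± 0.067), Nedd4 (a ubiquitin ligase related to the ENaC regulator Nedd4l, -0.30 ± 0.13), Slc12a2 (the cotransporter NKCC1, -0.20 ± 0.089) and Fxyd4 (a regulator of the sodium pump in the collecting duct, 0.59 ± 0.28), with edgeR adjusted p from 0.307 to 0.413. In the same comparison 4 of 6 endothelial markers had an unadjusted p under 0.05, all lower, with a median log2 fold change of -0.44 over the list and summed levels of 144 to 306 TPM in CoCM against 268 to 333 TPM in Ctrl, and the part of this in the values above was not tested.
In i.p. ABCB5+ 5 of 42 had an unadjusted p under 0.05 (1.77% of all genes), 4 of them higher. Among these were Bsnd, which codes for barttin (0.67 ± 0.31), Cldn19, a claudin of the ascending limb (0.48 ± 0.21), and Fxyd4 (0.67 ± 0.28). Nr3c1 was lower (-0.23 ± 0.087), and the adjusted p in edgeR was 0.978 for all 5. Bsnd was at 0.33 without the animals that stood apart. In i.v. ABCB5+ 3 of 42 had an unadjusted p under 0.05, a share near the 5.78% over all genes. All 3 were higher, namely the serine proteases Prss8 (prostasin, which cleaves ENaC, 0.67 ± 0.29) and Hpn (hepsin, 0.76 ± 0.33) and the aldosterone-induced kinase Sgk1 (0.61 ± 0.28), followed by Cldn10 (1.11 ± 0.54) and Fxyd2 (0.65 ± 0.39) with an unadjusted p above 0.05, and all 5 had an edgeR adjusted p of 0.673. Without the animals that stood apart Prss8 was at 0.11, Hpn at 0.09, Cldn10 at 0.15 and Fxyd2 at 0.05, while Sgk1 was at 0.56. Over the 8 alternatives Sgk1 lay between 0.32 and 0.61. Sgk1 was at 192 to 413 TPM with the i.v. cells and 114 to 323 TPM in Ctrl. In this group 3 of 8 immediate early genes also had an unadjusted p under 0.05, all higher, with a median log2 fold change of 0.53 over that list, whose part was not tested. Of the 12 lists of cell type markers, 0 genes passed in any comparison with Ctrl. Medians of the lists nearest to the members were 0.39, 0.49 and 0.25 for the thick ascending limb (CoCM, i.p., i.v.), 0.35, 0.50 and 0.09 for principal cells and 0.43, 0.52 and 0.18 for intercalated cells.

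More of the variation lay between animals of a group than between groups, as it also did for the median tested gene. The SD of log2 CPM (each count over the size of its library) within groups was 1.02 for Kcnj10, 0.91 for Umod, 0.75 for Slc12a1, 0.60 for Slc12a3, 0.56 for Wnk1 and 0.50 for Kcnj1. It was 0.46, 0.44 and 0.43 for Scnn1g, Scnn1a and Scnn1b and 0.38 for Wnk4, so that all 10 lay above the median of all genes, 0.30. The groups accounted for 4.13% (Wnk1) to 15.8% (Scnn1a) of a member's variance, with a median of 12.6% over all genes. Single animals were high or low for many members at once. Ctrl animal 1 was the lowest control for 10 of 10 members, and Ctrl animal 23 the highest control for 8 of 10, all but Umod and Slc12a1, for which animal 24 was highest. CoCM animal 26 was the lowest of its group for 8 members, again all but Umod and Slc12a1. I.v. animal 37 was the highest of its group for Umod (4638 TPM) and Slc12a1 (446 TPM) and the lowest for Slc12a3 (398 TPM), the 3 ENaC subunits, Wnk1 and Wnk4. High and low values thus went together in sets of genes.

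These sets were described by correlations of log2 CPM between members, after each group's mean was subtracted, over the 20 animals that did not stand apart. Of 45 pairs, 29 passed a permutation test (adjusted over the 45), all with a positive r. The smallest r among them was 0.525, a value reached by 9.88% of all pairs of tested genes, and 23 of 45 reached 0.7 (3.38% of all pairs). The pairs share libraries, and the members were chosen for a common place in the kidney.
Umod and Slc12a1 had Pearson's r = 0.969 and Spearman's rho = 0.947 (n = 20, permutation p = 1e-05, the smallest that 100000 draws give, adjusted p = 5.62e-05), and r = 0.955 without the 2 animals farthest from the median of Umod. The 2 sodium chloride cotransporters were not related in this way, since Slc12a1 and Slc12a3 had r = -0.055 and rho = -0.036 (permutation p = 0.834, adjusted p = 0.915), and r = -0.036 without the 2 farthest animals. Across all 12 pairs of Umod or Slc12a1 with Slc12a3, an ENaC subunit, Wnk1 or Wnk4, r lay between -0.123 and 0.16 and the smallest permutation p was 0.539. With 20 animals a moderate relation could have been missed, and each of these r was negative with total count removed, as given below.

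The genes further down formed the other set. Scnn1b and Scnn1g had r = 0.964 and rho = 0.947 (permutation p = 1e-05, adjusted p = 5.62e-05, r = 0.943 without the 2 farthest animals), and Scnn1a had r = 0.933 with Scnn1b and 0.938 with Scnn1g. Slc12a3 had r = 0.940 with Wnk4 (rho = 0.865, permutation p = 2e-05, adjusted p = 8.18e-05, r = 0.8996 without the 2 farthest), 0.914 with Scnn1b and 0.885 with Wnk1. All 15 pairs among Slc12a3, Scnn1a, Scnn1b, Scnn1g, Wnk1 and Wnk4 had r between 0.746 and 0.964. These 6 were put together after their values were seen, and the grouping itself was given no test.
Kcnj1 was related to Umod and to the distal genes. It had r = 0.588 with Umod (rho = 0.589, permutation p = 0.0138, adjusted p = 0.0238), 0.501 with Slc12a1 (adjusted p = 0.0585), 0.768 with Slc12a3 (rho = 0.747, permutation p = 0.00047, adjusted p = 0.00124) and 0.743, 0.705 and 0.705 with Scnn1a, Scnn1b and Scnn1g. With principal component 1 removed Kcnj1 had r = 0.136 with Umod and -0.016 with Slc12a1, and 0.839 with Slc12a3. Kcnj10 was closest to Wnk1 (r = 0.863, rho = 0.795, permutation p = 3e-05, adjusted p = 0.000112, r = 0.813 without the 2 farthest) and had r = 0.682 with Slc12a3 and 0.111 with Umod.

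**Figure D3:**
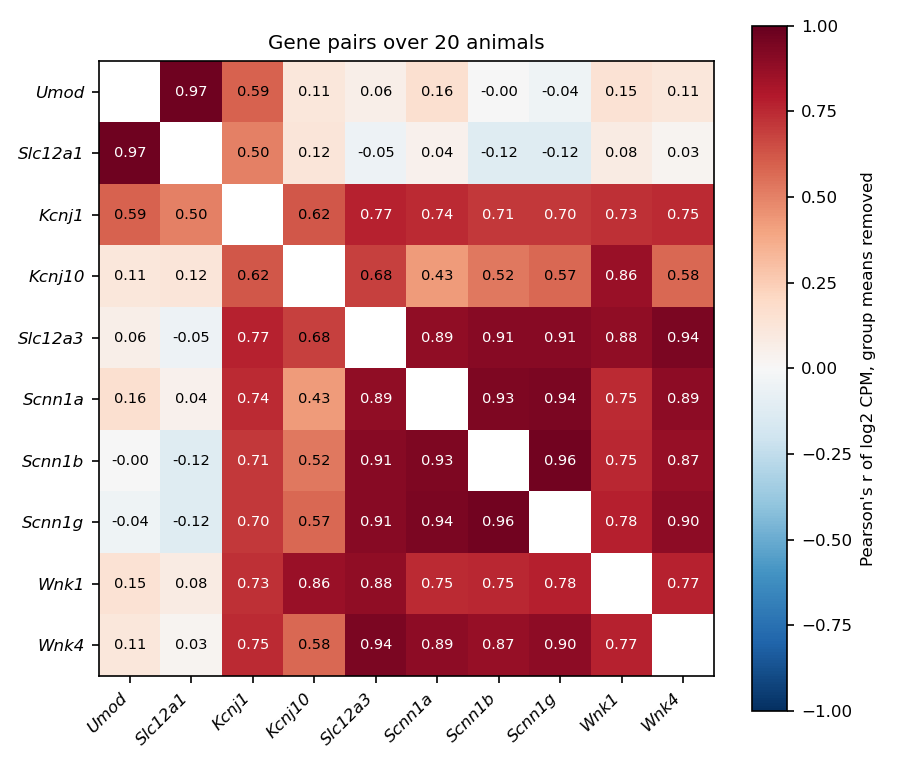
Pearson's r between the log2 CPM of each pair of genes over the 20 animals that did not stand apart, after the group means were removed (colour scale from -1 to 1). Umod and Slc12a1 go together (0.97) and apart from Slc12a3, the ENaC subunits and the WNK kinases, which form a block of 0.75 to 0.96. Kcnj1 has 0.70 to 0.77 with that block and 0.59 with Umod, of which 0.136 is left with principal component 1 removed.

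The library total moved with one of the sets. Over the same 20 animals, 8 of 10 members had a negative relation to log2 total count that passed the permutation test (adjusted over 150 relations of members with animal measures), and Umod and Slc12a1 did not. The share over all tested genes is not known here, so this count cannot be called particular to the members. Slc12a3 had r = -0.813 and rho = -0.835 (permutation p = 0.00025, adjusted p = 0.00139), and r = -0.704 without the 2 farthest animals. Scnn1b had r = -0.757 (rho = -0.704, permutation p = 0.00178, adjusted p = 0.00722) and -0.521 without the 2 farthest animals. Umod had r = -0.333 (rho = -0.292, permutation p = 0.195, adjusted p = 0.321). When total count was removed from each member by regression, an alternative chosen after seeing the data, 13 of 45 pairs passed in place of 29. Umod with Slc12a1 then had r = 0.972, Scnn1b with Scnn1g 0.916, Slc12a3 with Wnk4 0.852 and Kcnj10 with Wnk1 0.799, whereas Kcnj1 passed with no other member (r = 0.562 and adjusted p = 0.0754 with Umod), its r with Slc12a3 fell from 0.768 to 0.353 (adjusted p = 0.198) and Scnn1b with Wnk1 from 0.751 to 0.426. Of the 15 pairs of the distal set, 11 still passed, with r between 0.344 and 0.916. The 12 pairs of Umod or Slc12a1 with these distal genes then had a negative r. It went from -0.142 (Slc12a1 with Wnk1) to -0.477 (Umod with Scnn1g, permutation adjusted p = 0.108). Slc12a1 with Slc12a3 had r = -0.434, and none of the 12 passed. Removing the trend of each library with transcript length left 30 pairs and removing principal component 1 left 28.

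**Figure D4:**
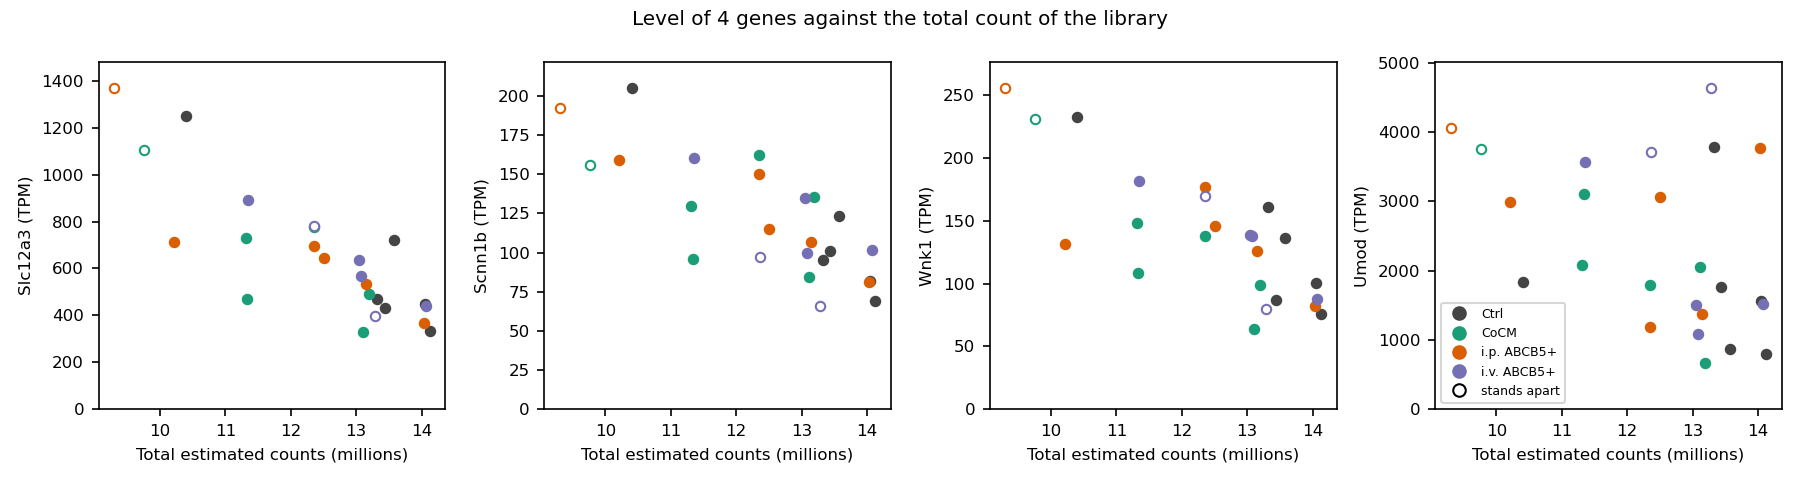
Level (TPM, from 0) of Slc12a3, Scnn1b, Wnk1 and Umod against the total estimated count of the library in 24 animals; colours are groups and open points the 4 animals that stood apart. The first 3 fall as the total rises (r of log2 CPM with log2 total count -0.813, -0.757 and -0.748 over 20 animals), while Umod is scattered (r = -0.333).

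Markers of other cells moved with the members in different ways. Umod and Slc12a1 followed the score of 5 late proximal tubule markers (r = 0.899, rho = 0.869 and r = 0.898, rho = 0.899; permutation p = 1e-05 and adjusted p = 0.000167 for both), and r was 0.861 and 0.859 without the 2 farthest animals. Slc12a3 had r = -0.109 with that score (permutation p = 0.693). With 7 other markers of the thick ascending limb, r was 0.875 for Umod, 0.834 for Slc12a1 and 0.845 for Kcnj1, but 0.445 for Slc12a3 and 0.343 for Scnn1b. Scnn1g and Scnn1b followed 7 intercalated cell markers (r = 0.917 and 0.910) more closely in value than 7 principal cell markers (r = 0.804 and 0.816), though principal cells are where ENaC works, and the difference between these values was not tested. Slc12a3 had r = 0.899 with the 2 markers of the distal convoluted tubule (rho = 0.916, permutation p = 1e-05, adjusted p = 0.000167, r = 0.893 without the 2 farthest animals). It also had r = 0.888 with the intercalated cell markers and 0.707 with the principal cell markers. The same 2 markers had r = 0.846 with Scnn1b and 0.829 with Wnk1, so the relation was not particular to Slc12a3 or to its segment. The fibroblast and matrix score was negatively related to all 10 members, from r = -0.503 (Scnn1b) to -0.834 (Kcnj1; rho and r without the 2 farthest animals had the same sign), and 8 of 10 passed. The immune score was likewise negative, from -0.445 (Scnn1b) to -0.815 (Kcnj1), and 7 passed. How many of all tested genes were related to these scores is not known here, so neither count is a result particular to the members. The part of these cells in the members' levels was not tested.

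Ratios of TPM showed which members kept their proportion. Scnn1b/Scnn1g was between 1.63 and 2.26 in all 24 animals (median 1.95), while Scnn1b by itself went from 65.6 to 205 TPM and Scnn1g from 35.99 to 108 TPM. Scnn1a/Scnn1g lay between 1.12 and 1.56 and Scnn1a/Scnn1b between 0.525 and 0.858. The subunits were thus measured in the order beta, alpha, gamma in every animal. Umod/Slc12a1 was between 5.76 and 9.86 (median 7.64) in the 20 animals and up to 13.4 in those that stood apart. Slc12a3/Slc12a1, in contrast, went from 0.683 to 5.92 (median 2.33), with 0.925 to 5.92 in Ctrl, 1.12 to 5.36 in CoCM, 0.683 to 4.51 with the i.p. cells and 0.891 to 4.40 with the i.v. cells. The proportion of NCC to NKCC2 transcript thus differed widely between animals of each group. The group medians were 2.78, 3.15, 2.26 and 2.24. Medians vary less than single animals in any case, so the 2 spreads cannot be set against each other. Wnk1/Wnk4 was between 0.849 and 2.13 and Slc12a3/Wnk4 between 4.36 and 9.67.

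**Figure D5:**
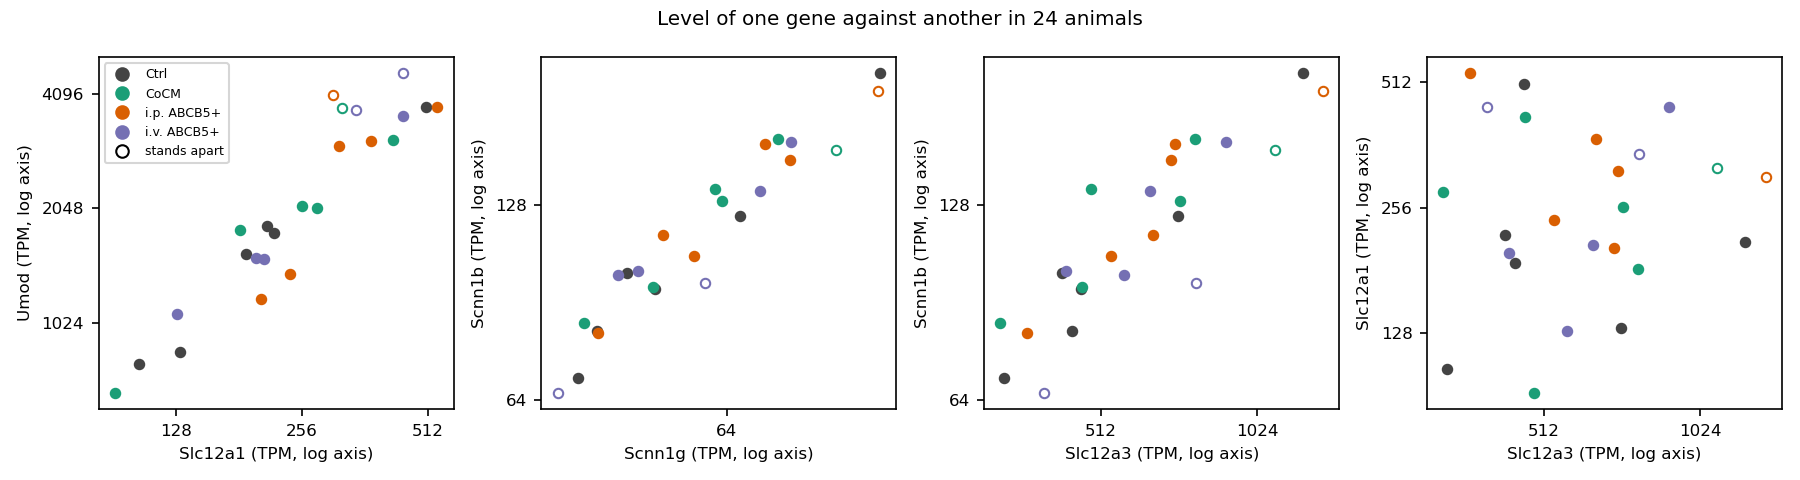
Levels in TPM (both axes log scale) of Umod against Slc12a1, Scnn1b against Scnn1g, Scnn1b against Slc12a3 and Slc12a1 against Slc12a3 in 24 animals; colours are groups and open points the animals that stood apart. The first 3 panels follow a line and the last, with Slc12a3/Slc12a1 from 0.683 to 5.92, does not.

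For each member, genes from the 2 with the largest r over the same 20 animals, out of 11734 compared, are given as a description. For Umod these were Phyh (0.969), a peroxisomal enzyme of phytanic acid breakdown, and Gsta3 (0.954), a glutathione transferase. For Slc12a1 they were Irx1 (0.9599), a transcription factor of nephron patterning, and Aspg (0.956). Slc12a3 was closest to Tmem52b (0.948) and Aif1l (0.942), and Wnk4 had Catsperg (0.936) among its closest. Kcnj1 was closest to Slc44a3 (0.963) and Mecom (0.955), and Kcnj10 to Car12 (0.976), a carbonic anhydrase, and Cdc42bpg (0.975). Among the subunits of ENaC, Scnn1a was closest to Avpr2 (0.938), the vasopressin receptor of the collecting duct, and Fam234b (0.937), Scnn1b to Degs2 (0.957) and Hsd11b2 (0.950), the enzyme that shields the mineralocorticoid receptor from glucocorticoids, and Scnn1g to Kcnq1 (0.964), a potassium channel, and A4galt (0.957). Wnk1 was closest to Slit2 (0.976) and Cnnm2 (0.953), a basolateral protein of magnesium transport. The median r of a member with all compared genes was between -0.02 and 0.06.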

How the data were processed

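Left kidney RNA of 24 rats was sequenced on the BGISeq-500. The authors deposited estimated counts, not normalized, and TPM values, scaled to transcript length and library total, for 17334 Entrez genes. The submitters' processing notes name Trim Galore 0.6.4, kallisto 0.4.6 and the build rn6; the study's methods name a gene model package for the human build hg19, and the rat annotation behind the gene table was not given in the sources used here. Symbols were found for 17179 genes in NCBI RefSeq (GRCr8), which also gave the promoter sequences, so their coordinates are not those of the files' build. Groups were taken from the labels. No sign of a library deposited more than once was found (chi-square per degree of freedom of at least 10.4 within groups). 

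Estimated counts were rounded, filtered with filterByExpr and scaled by TMM, and all 24 samples were fitted together in edgeR 4.0.16 (R 4.3.3) with the quasi-likelihood F-test and Benjamini-Hochberg adjustment over 12778 genes (threshold 0.05). The study's methods name DESeq2, which was run as an alternative (1.42.0), as was limma 3.58.1. The SE was the log2 fold change divided by the square root of F, and intervals used 20 degrees of freedom. The code was tested on simulated counts. Single members were compared by two-sided exact permutation of log2(TPM + 1), with 0.1 as an alternative pseudocount. Correlations used log2 CPM (prior count 2), 100000 permutations within groups and Benjamini-Hochberg adjustment. Animals stood apart if they lay beyond the largest gap on principal component 1. Named genes were the 10 members, up to 5 pathway genes per comparison with the smallest p and, for each member, the 2 genes with the largest r, both with an average log2 CPM above 1; some of the genes this rule names are not reported here. Alternatives were other size factors and filters, DESeq2, limma on TPM and with voom, fewer samples, and each animal left out. The members and lists were chosen with earlier results of these data known. Total counts limit single values: 3 counts are 0.322 CPM in the smallest library, which covers counting error only.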

Additional observations from a re-analysis of the deposited data

Results flagged for a closer look

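In each group of 6 the highest and the lowest animal were compared with the nearest of the others by Dixon's ratio (critical value 0.625), for 10 genes in 4 groups. Of these 40 sets 5 were marked. Chance would mark about 2 if the sets were independent and the TPM values normally spread. As the members moved together and TPM was not put on a log scale, the 5 cannot be read as an excess. Umod was at 3784 TPM in Ctrl animal 24, with the next control at 1841 TPM (ratio 0.651). Slc12a1 was at 507 TPM in the same animal, with the next at 219 TPM (0.715). Both are the genes of the thick ascending limb that went together, so the animal counts as 1 observation for the pair. Scnn1a was at 121 TPM in Ctrl animal 23, with the next at 77.5 TPM (0.670), and this library had the lowest total count of the controls (10405757). Slc12a3 was at 1370 TPM in i.p. ABCB5+ animal 38, with the next at 712 TPM (0.657), and Kcnj10 at 42.6 TPM in the same animal, with the next at 21.3 TPM (0.637). That animal stood apart on principal component 1 and had the smallest library of the series (9304630). The part of library total in these values was not tested.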

How the results depend on the processing

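No paired analysis was possible because no animal number occurs in more than 1 group. Members that passed numbered 0 of 10 in each comparison under each alternative, leaving out single animals included: median-ratio size factors, no filter, at least 10 counts in every sample, DESeq2, limma on log2(TPM + 1), voom with quality weights, only the groups compared, and without the animals that stood apart. Over all genes limma voom with quality weights passed 183 and DESeq2 81 in CoCM against Ctrl where edgeR passed 1, and 1 gene with the i.v. cells where edgeR passed 0. Of 45 pairs of members, 29 passed, 26 to 31 with other scales, measures or animals, and 13 with total count removed, an alternative chosen after seeing the data. The directions of some members changed. Without the animals that stood apart, log2 fold changes were -0.0183 for Slc12a3 and -0.16 for Wnk1 in CoCM and -0.29 for Kcnj10 in i.p. ABCB5+. With limma they were -0.0104 for Wnk1 in CoCM and -0.00644 for Scnn1g in i.v. ABCB5+. Leaving out 1 animal at a time gave, in CoCM, -0.00239 to 0.525 for Slc12a3, -0.759 to 0.224 for Kcnj10 and -0.145 to 0.312 for Wnk1; in i.p. ABCB5+, -0.293 to 0.603 for Kcnj10; and in i.v. ABCB5+, -0.0579 to 0.532 for Kcnj10, -0.0682 to 0.246 for Scnn1b, -0.0597 to 0.247 for Scnn1g, -0.0301 to 0.281 for Wnk1 and -0.00201 to 0.300 for Wnk4. The sign turned without CoCM animal 39 (Slc12a3, Wnk1), without CoCM animals 26, 27 or 35 or Ctrl animal 23 (Kcnj10 in CoCM), without i.p. animal 38 (Kcnj10), and, with the i.v. cells, without animal 36 (Kcnj10, Wnk1, Scnn1g), 42 (Scnn1b, Scnn1g, Wnk4) or 33 (Scnn1g) or Ctrl animals 1, 22 or 24 (Scnn1b, Scnn1g). With 6 animals a group the width of the intervals limits what can be said of each member. The cause was not tested.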
